A study of Mus musculus with 24 samples.

Results

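Areas of the control mouse brain, the prefrontal cortex (PFC) and the area labelled cerebral cortex (CC), were set against each other here, without the stress treatment of the series. The members were taken by their area and treatment labels, with earlier results of these data known. They are the 3 PFC arrays and the 3 CC arrays of control mice, 6 of the 24 arrays of the series. Every probe set was in use except the Affymetrix control probe sets. The series measured total RNA of 4 brain areas on mouse genome GeneChip arrays, after chronic mild stress (CMS, a sequence of unpredicted mild stressors on 6 days per week for 4 weeks) or without it. Both groups came from wild-type male C57BL/6 mice labelled as aged 6 to 8 weeks, which the methods give as the age at purchase. The 4-week schedule came later, and the control mice received none of its stressors. The study also ran weekly swimming, tail suspension and running wheel tests in its control mice. No source used here states the borders along which PFC and CC were dissected, and the methods name pooled RNA where the labels name separate mice, so the p-values may measure only the spread between these arrays.

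The PFC is the front part of the cortical sheet and takes part in planning and the control of mood. In the mouse the olfactory bulb lies directly before it and the striatum below it, whereas sensory areas further back have a dense layer 4, the target of thalamic input, that is thin or missing in the mouse PFC. The choroid plexus is an epithelium inside the ventricles that makes cerebrospinal fluid. Genes known from these structures were among the largest changes in both directions.

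Values were deposited as log2 numbers, and every probe set had been centred on its median over the 24 arrays. A value of 0 is therefore the middle of the series and not an absence of RNA, and differences between arrays are kept while absolute levels are not. All differences below are PFC minus CC. A gene is the mean of the probe sets that match its symbol alone, and it was called if its adjusted p was under 0.05 and its fold change above 2 (limma, two-sided, Benjamini-Hochberg adjustment). In a sample of tissue, fewer cells of a type and less RNA per cell cannot be told apart. The gene lists described below were chosen with earlier results of these data known. Counts of their calls beside the share over all genes therefore describe these arrays and carry no test.

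Of 45037 probe sets 3.3% were called, and 744 were higher and 743 lower in PFC, 1.65% each. Of 18193 genes 2.26% were called, of which 277 (1.52%) were higher and 135 (0.742%) lower. Without the fold threshold 2380 genes (13.1%) were higher and 2572 (14.1%) lower. The surplus of increases past the fold threshold was one of genes and was not there in the probe sets. Of the called probe sets that matched 1 gene symbol, 667 were higher and 442 lower. The median change was 1.46 over the genes called higher and -1.22 over those called lower. The probe sets called lower were also less often named, since 292 of the 743 (39.3%) matched no gene symbol, against 64 of the 744 (8.6%) called higher and 20.3% of all probe sets tested.

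The arrays of PFC correlated with each other at 0.805 to 0.838 over all probe sets. CC replicates 1 and 2 correlated at 0.837 and CC replicate 3 with either at 0.690, and between the areas the correlation lay between -0.203 and -0.0786. Bacterial RNAs added during preparation averaged -0.63 to -0.45 in PFC arrays and 0.27 to 0.59 in CC arrays, and the 3′ minus 5′ signal of Gapdh was -0.0015 to 0.011 in PFC and 0.097 to 0.156 in CC, while that of Actb overlapped. These preparation values moved with the area, and their part in the results was not tested. Without absolute levels the cortical label can be checked only against the other areas, and Tbr1, a factor of cortical glutamatergic neurons chosen for this check after its values were seen, averaged 0.40 ± 0.10 in PFC and 1.08 ± 0.19 in CC, beside -0.53 in control Hippo and -0.89 in control Amy (SD, n = 3 each).

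The 2 genes with the largest increases in PFC, S100a5 and Cdhr1, are known from the olfactory system. S100a5, a calcium-binding protein of olfactory sensory neurons that stood on no list, had values of 7.95, 8.00 and 8.17 in control PFC, against -0.04, -0.03 and 0.00 in control CC. All PFC arrays were far above all CC arrays, a difference of 8.06 ± 0.06 (SE) or 267-fold (adjusted p = 4.57e-07). Cdhr1, a cadherin-related protein of the bulb's mitral and tufted output neurons, had 4.31, 4.33 and 4.37 in PFC, against -3.48, -3.48 and -3.45 in CC. The arrays of each area lay close together and the areas differed by 7.81 ± 0.03 (SE, adjusted p = 1.32e-08). Control Hippo and control Amy stood between them, at -0.30 ± 0.07 and 0.55 ± 0.28 (SD, n = 3 each), so that Cdhr1 was raised in PFC and also low in CC.

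Other genes of the olfactory bulb list were called higher in PFC as well. Doc2g, a C2-domain protein, had 5.79, 5.92 and 6.02 in PFC, against -0.03, -0.02 and 0.03 in CC (difference 5.92, adjusted p = 9.37e-07). Eomes, a T-box transcription factor of mitral and tufted cells, had 5.03 to 5.32 in PFC and -0.22 to -0.17 in CC (difference 5.39, adjusted p = 2.64e-06), and its relative Tbx21 differed by 4.20 (adjusted p = 1.44e-05). Genes of the bulb's inhibitory interneurons were also called. Th, the rate-limiting enzyme of dopamine synthesis, which periglomerular cells use, had 5.53, 5.83 and 5.82 in PFC, against -0.55, -0.12 and -0.13 in CC (difference 6.00, adjusted p = 1.75e-05). Calb2, the calcium-binding protein calretinin, differed by 5.09 (adjusted p = 1.15e-05) and Sp8, a zinc finger factor of interneuron precursors, by 4.52 (adjusted p = 6.23e-05). Shisa3 and Trh, the precursor of thyrotropin-releasing hormone, rose by 4.86 and 4.70.

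Of the 25 measured genes on the olfactory bulb list, 14 were called higher in PFC and 0 lower, beside 1.52% and 0.742% of all genes. By adjusted p alone 18 were higher and 2 lower, beside 13.1% and 14.1% of all genes. The median difference was 1.87, beside -0.03 over all genes. Averaged over the list, the PFC arrays stood at 2.09 to 2.13 and the CC arrays at -0.42 to -0.33. In all 14 called members every PFC array was above every array of the 3 other control areas. This position was held by 140 of the 277 genes called higher (50.5%) and by 8.53% of all genes. The same arrays made the calls, so these counts describe the order of levels only. The 11 members that were not called included Slc17a7, a vesicular glutamate transporter of the whole cortex (difference 0.80, adjusted p = 0.00235), and Vip, an interneuron peptide (difference -0.88). The part of these genes in the difference between the labelled areas was not tested.

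Genes of the olfactory epithelium were mostly flat in the control arrays. Omp, the marker protein of mature olfactory sensory neurons, whose axons end in the bulb, had 3.63, 3.48 and 3.71 in PFC, against -0.03, -0.03 and 0.00 in CC (difference 3.62, adjusted p = 5.01e-06). Cbr2, a carbonyl reductase of airway epithelium, differed by 1.21 (adjusted p = 0.000824). These were the 2 members called among 26 measured epithelium genes, beside 1.52% of all genes called higher. The median difference of the list was -0.03, and list averages were 0.18 to 0.23 in PFC arrays and 0.03 to 0.06 in CC arrays. Cnga2, a channel of the same sensory neurons, had -0.04 to -0.01 in PFC and -0.01 to 0.03 in CC. Stoml3, another olfactory sensory neuron protein that stood on the cilia list, differed by 2.24 (adjusted p = 0.00223).

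**Figure D1:**
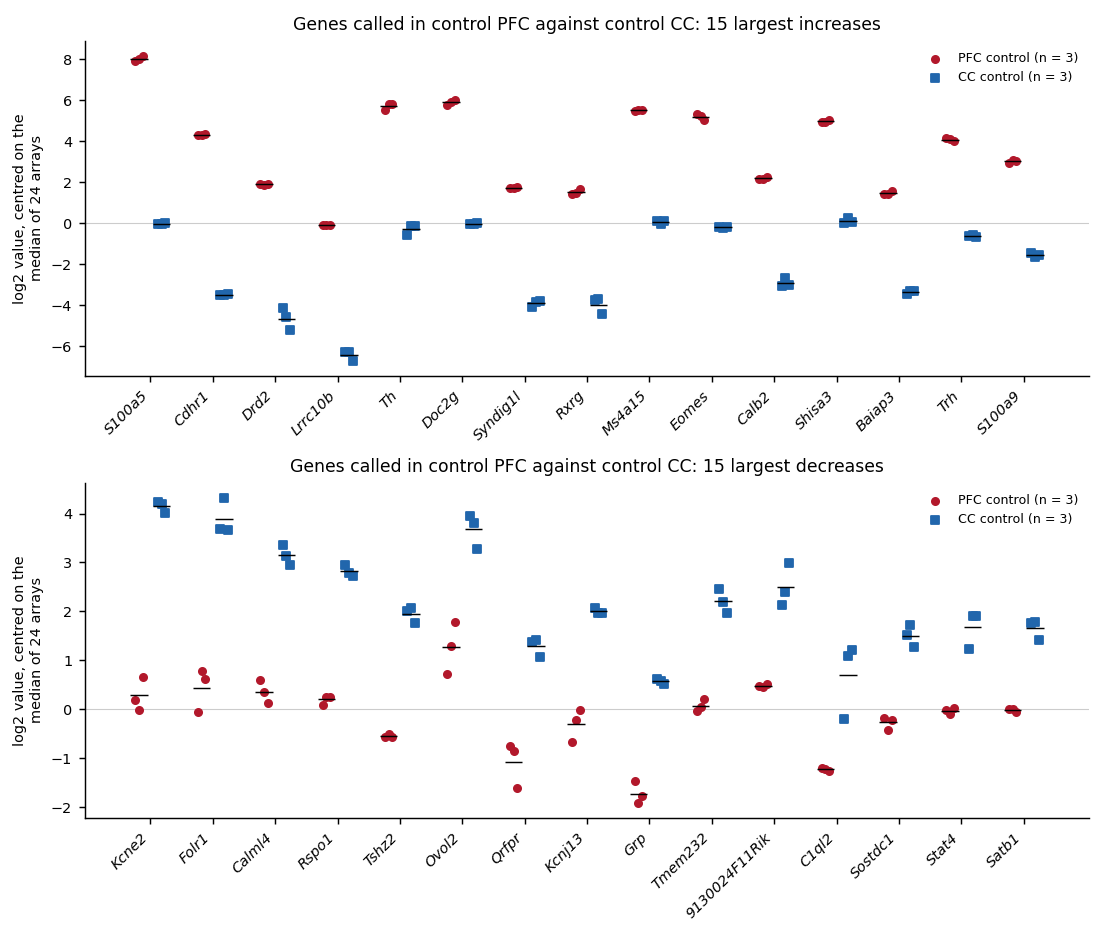
Values of the 15 genes with the largest increases (upper panel) and the 15 with the largest decreases (lower panel) among called genes whose PFC and CC arrays did not overlap. The vertical axis is the log2 value centred on the median of the 24 arrays, circles are the 3 control PFC arrays, squares the 3 control CC arrays and bars the means. S100a5 stands near 8 in PFC and near 0 in CC, and Kcne2 near 0 in PFC and near 4 in CC.

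Most measured genes of the striatum list were called higher in PFC. Drd2, the dopamine receptor of the indirect pathway, had 1.94, 1.85 and 1.95 in PFC, against -4.15, -4.56 and -5.20 in CC. The CC arrays spread more than the PFC arrays and all lay far below them (difference 6.55 ± 0.26 SE, adjusted p = 8.57e-05). Penk, the precursor of enkephalin, had 1.08, 1.11 and 1.11 in PFC, against -2.57, -2.61 and -2.75 in CC (difference 3.74 ± 0.05 SE, adjusted p = 2.42e-06). Syndig1l, a transmembrane protein enriched in the striatum, differed by 5.64 in the mean of its probe sets (adjusted p = 2.95e-06). Among direct pathway genes, Drd1, the other main dopamine receptor of the striatum, had 0.69 to 0.77 in PFC and -2.29 to -1.97 in CC (difference 2.81, adjusted p = 4.63e-05), while Pdyn, the dynorphin precursor, differed by 1.61 and Tac1, the substance P precursor, by 1.39. Ppp1r1b, the dopamine-regulated phosphatase inhibitor DARPP-32, differed by 3.15 (adjusted p = 1.08e-05) and Pde10a, a striatal phosphodiesterase, by 2.67 (adjusted p = 8.34e-06).

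Of 28 measured striatum genes, 22 were called higher and 0 lower, beside 1.52% and 0.742% of all genes. Without the fold threshold 27 were higher, beside 13.1% of all genes, and the median difference was 2.35. Ido1, an enzyme of tryptophan breakdown, Slc35d3, which acts in dopamine receptor trafficking, and the orphan receptor Gpr6 differed by 4.52, 4.47 and 4.05. List averages per array were 0.85 to 0.91 in PFC and -1.75 to -1.61 in CC. Control Amy averaged 1.13 and control Hippo -1.93, so PFC stood near Amy and CC near Hippo. Of the 22 called striatum genes, 5 had every PFC array above all other control areas, beside 14 of the 14 called bulb genes, and 6 had every CC array below them, beside 3 of the 14. Among the 277 genes called higher these positions were held by 50.5% and 39.7%, and among all genes by 8.53% and 4.36%. Lrrc10b, a leucine-rich repeat protein that was on no list, had -0.06, -0.06 and -0.09 in PFC, against -6.28, -6.27 and -6.70 in CC. Its values in Hippo (0.15 ± 0.13) and Amy (0.76 ± 0.02, SD, n = 3 each) were close to those in PFC, so that CC alone was low (difference 6.35, adjusted p = 8.34e-06).

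**Figure D2:**
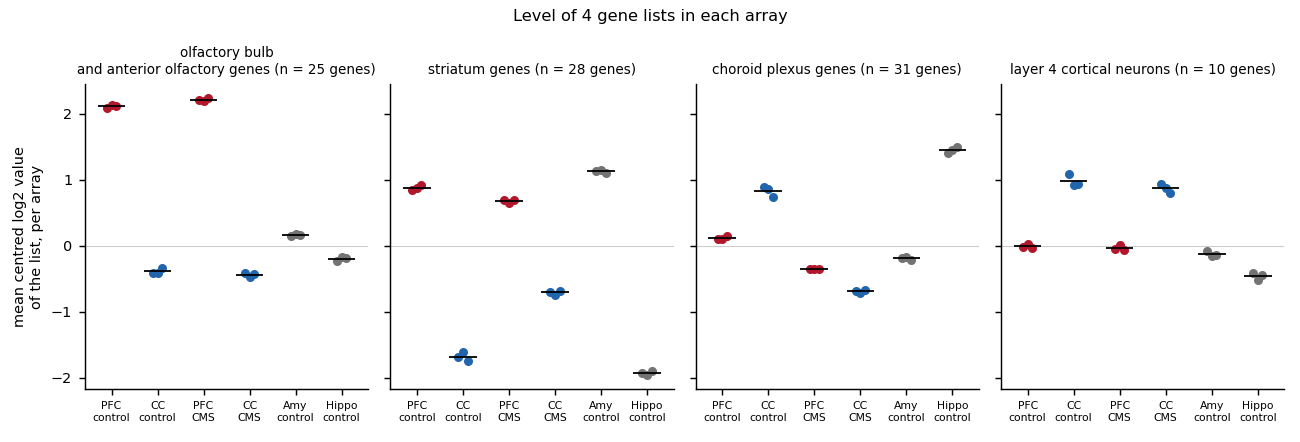
Mean centred log2 value of the members of 4 gene lists in each array (vertical axis), with 3 arrays per group as points and their mean as a bar. Olfactory bulb genes stand above 2 in PFC and below 0 in CC under both treatments, striatum genes are low in CC and Hippo, choroid plexus genes are above 0 in control PFC, CC and Hippo and lowest of these in PFC, and layer 4 genes are highest in CC.

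Of the retinoic acid pathway genes called higher, the nuclear receptor genes Rxrg and Rarb also stood on the striatum list. Rxrg, the retinoid X receptor gamma, had 1.44, 1.5 and 1.66 in PFC, against -3.76, -3.69 and -4.42 in CC (difference 5.49, adjusted p = 6.72e-05). Rarb, the retinoic acid receptor beta, differed by 3.49 (adjusted p = 4.4e-05), and the synthesizing enzyme Aldh1a2 by 1.32 (adjusted p = 0.00018). Both receptors and Aldh1a2 were higher in every PFC array than in any CC array, as were 19.2% of all genes. Of 20 measured retinoic acid genes, 5 were called higher, 1 lower and 14 neither, beside 1.52% of all genes higher and 0.742% lower. The median was 0.08, and Rara, Rxra and Rxrb differed by -0.02, -0.04 and 0.10. Of 33 patterning transcription factors, 5 were called higher and 6 lower, beside the same shares of all genes. Pbx3 and Meis2, homeobox cofactors of the ventral forebrain, differed by 4.21 (adjusted p = 1.11e-06) and 2.24 (adjusted p = 8.34e-06), with all their probe sets called, and Zic1, a zinc finger factor of the ventral and midline forebrain, by 3.11 (adjusted p = 4.64e-06). Dlx1, Dlx2 and Dlx5, homeobox genes of inhibitory neuron precursors, differed by 2.41, 1.96 and 3.31.

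Retinoid receptors bind the half-site AGGTCA, and the promoters of the 15 most raised and the 15 most lowered genes were searched on both strands for it and for 3 other motifs, the homeobox motifs TAATTA and TAATCC, which share their first 4 letters, and the T-box motif GGTGTGA. The promoters, from 250 bases before to 50 bases after each start site, are those of RefSeq on GRCm38.p6. Of the 13 raised genes with a promoter there, 3 held AGGTCA, and of the 12 lowered genes 2 did, beside 16.3% of all 32851 promoters. TAATTA and TAATCC were in 0 of the 13 and 0 of the 12, beside 5.29% and 7.06% of all promoters, and GGTGTGA was in 0 of the 13 and 1 of the 12, beside 3.98%. The 5 promoters with AGGTCA, of 3 genes higher and 2 lower in PFC, are shown because they hold these letters, and the capitals mark the half-site or, in S100a5 and Trh, its reverse complement, which in S100a5 lies after the start site.
S100a5, chr3:90608272-90608571, plus strand: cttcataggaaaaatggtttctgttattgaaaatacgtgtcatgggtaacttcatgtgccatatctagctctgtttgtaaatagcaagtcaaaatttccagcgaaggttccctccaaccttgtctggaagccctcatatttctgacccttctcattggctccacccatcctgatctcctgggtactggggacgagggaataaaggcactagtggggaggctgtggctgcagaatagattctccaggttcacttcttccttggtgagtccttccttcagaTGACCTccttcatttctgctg
Ms4a15, chr19:10993201-10993500, minus strand: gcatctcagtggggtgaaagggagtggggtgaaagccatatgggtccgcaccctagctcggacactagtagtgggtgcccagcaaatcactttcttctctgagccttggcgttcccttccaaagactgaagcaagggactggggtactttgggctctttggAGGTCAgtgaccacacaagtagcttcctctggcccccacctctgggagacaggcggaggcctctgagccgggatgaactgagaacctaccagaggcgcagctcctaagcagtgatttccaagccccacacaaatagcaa
Trh, chr6:92244601-92244900, minus strand: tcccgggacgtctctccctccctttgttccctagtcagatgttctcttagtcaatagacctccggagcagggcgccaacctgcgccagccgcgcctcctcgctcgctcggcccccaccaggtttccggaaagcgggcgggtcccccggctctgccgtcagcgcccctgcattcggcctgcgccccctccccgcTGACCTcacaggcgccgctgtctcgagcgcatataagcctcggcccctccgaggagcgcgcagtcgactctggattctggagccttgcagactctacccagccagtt
Tmem232, chr17:65510008-65510307, minus strand: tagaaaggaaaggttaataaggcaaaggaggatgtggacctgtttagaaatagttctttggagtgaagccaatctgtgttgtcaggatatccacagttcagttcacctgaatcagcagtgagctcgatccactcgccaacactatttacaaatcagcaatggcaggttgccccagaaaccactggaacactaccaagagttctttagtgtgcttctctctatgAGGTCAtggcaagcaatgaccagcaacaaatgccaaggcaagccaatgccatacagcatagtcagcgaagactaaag
Stat4, chr1:51986898-51987197, plus strand: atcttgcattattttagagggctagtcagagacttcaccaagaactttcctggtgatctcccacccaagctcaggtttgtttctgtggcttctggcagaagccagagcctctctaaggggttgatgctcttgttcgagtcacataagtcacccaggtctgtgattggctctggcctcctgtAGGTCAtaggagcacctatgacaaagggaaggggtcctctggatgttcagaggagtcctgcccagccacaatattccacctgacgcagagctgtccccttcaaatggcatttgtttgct
Ms4a15, a membrane-spanning protein of the MS4A family, rose by 5.44 (adjusted p = 9.37e-07), and Tmem232 and Stat4 were lower by log2 differences of -2.13 and -1.70. The shares in both directions rest on few promoters and a match is a description of the letters alone.

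Of 33 measured neuropeptide genes 8 were called higher, 1 lower and 24 neither, beside 1.52% of all genes higher and 0.742% lower. Their median was 0.06. Nts, the precursor of neurotensin, had 0.27, 0.29 and 0.44 in PFC, against -4.12, -3.59 and -3.87 in CC (difference 4.19, adjusted p = 4.58e-05). Hippo stood at 0.07 ± 0.06 (SD, n = 3), so that CC was the low area. Nmb, the neuromedin B precursor, differed by 3.34 (adjusted p = 2.88e-05) and Cartpt, the precursor of CART peptide, by 1.90 (adjusted p = 0.000872). Grp, the precursor of gastrin-releasing peptide, was the peptide gene called lower. It had -1.47, -1.90 and -1.78 in PFC, against 0.61, 0.59 and 0.52 in CC (difference -2.29, adjusted p = 0.000168).

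Of 30 measured interneuron markers, 10 were called higher, 1 lower and 19 neither, beside 1.52% of all genes higher and 0.742% lower. Of the 30, 6 also stood on the bulb or striatum list. Gad1 and Gad2, the enzymes of GABA synthesis, differed by 1.25 (adjusted p = 8.91e-06) and 1.63 (adjusted p = 0.000157). Pvalb, the calcium-binding protein parvalbumin of fast-spiking cortical interneurons, went the other way. It had 0.08, 0.09 and 0.25 in PFC, against 1.75, 1.79 and 1.65 in CC (difference -1.59, adjusted p = 8.64e-05). The interneuron peptides Sst and Npy were not called, with differences of 0.36 and 0.59.

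Genes on the lists of other brain territories were called as well, beside 1.52% of all genes called higher and 0.742% lower. Of 28 hypothalamus genes, 8 were higher and 1 lower, with a median of 0.05. Baiap3, a regulator of dense-core vesicle release, had 1.45, 1.45 and 1.59 in PFC, against -3.45, -3.31 and -3.28 in CC (difference 4.84, adjusted p = 2.42e-06). Lhx8, a factor of basal forebrain cholinergic neurons, differed by 3.62 (adjusted p = 1.75e-05), and in both genes control Amy stood higher still, at 3.27 and 5.22. Of 30 thalamus and habenula genes 5 were higher and 0 lower, of 28 hippocampus genes 3 and 2, and of 22 amygdala genes 4 and 3. These lists share called members with others and were chosen with earlier results of these data known. The counts are therefore not separate results and carry no test. Trh on the hypothalamus list and Calb2 on the thalamus list are also bulb genes. Meis2 on the amygdala list is also a striatum gene, Nts on the hippocampus list is a neuropeptide gene, and Baiap3 is on both the hypothalamus and thalamus lists.

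S100a8 and S100a9, the calcium-binding proteins that neutrophils hold in large amounts, were higher in PFC. S100a9 had 2.96, 3.12 and 3.05 in PFC, against -1.44, -1.62 and -1.53 in CC (difference 4.57, adjusted p = 2.43e-06). S100a8 had 2.53 to 2.81 in PFC and -1.54 to -1.32 in CC (difference 4.08, adjusted p = 1.35e-05). They were the 2 called among 17 measured blood cell genes, beside 1.52% of all genes called higher. The median difference of the list was -0.01. The granule genes Ngp and Camp differed by 0.57 (adjusted p = 0.0125) and 0.64 (adjusted p = 0.02), under the fold threshold, and the hemoglobin gene Hba-a1 by -0.02.

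Meningeal and fibroblast matrix genes were shifted upward in PFC by small amounts. Of 30 measured, 8 were called higher and 0 lower, beside 1.52% and 0.742% of all genes. Without the fold threshold 24 were higher and 1 lower, beside 13.1% and 14.1% of all genes, and the median difference was 0.52. Bgn, a proteoglycan of connective tissue, had 1.11, 0.94 and 1.04 in PFC, against -0.55, -0.42 and -0.82 in CC (difference 1.62, adjusted p = 0.00043). Slc6a13, a GABA transporter of the leptomeninges, and Col6a1, a collagen chain, differed by 1.5 and 1.45. List averages were 0.26 to 0.33 in PFC arrays and -0.42 to -0.29 in CC arrays, and the part of meninges in other differences was not tested.

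The 3 genes with the largest decreases in PFC, Kcne2, Folr1 and Calml4, were choroid plexus genes. Kcne2, a potassium channel subunit of that epithelium, had 0.20, -0.01 and 0.67 in PFC, against 4.24, 4.19 and 4.00 in CC. Its PFC arrays were the more variable and none came near the CC arrays (difference -3.86 ± 0.18 SE, adjusted p = 0.000146). Folr1, a folate receptor, had -0.06, 0.78 and 0.62 in PFC, against 3.69, 4.32 and 3.67 in CC (difference -3.45, adjusted p = 0.00074). Calml4, a calmodulin-like protein, and the potassium channel Kcnj13 differed by -2.78 (adjusted p = 0.000235) and -2.31 (adjusted p = 0.000484). For Ttr, which encodes transthyretin, the thyroid hormone carrier that the choroid plexus secretes, the values were 1.83, 1.80 and 1.84 in PFC and 3.26, 3.24 and 3.26 in CC. The areas did not overlap, as in 35.1% of all genes with PFC the lower area. All 4 probe sets of Ttr were called (difference -1.43, adjusted p = 7.11e-06).

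Of 31 measured choroid plexus genes, 11 were called lower and 1 higher, beside 0.742% and 1.52% of all genes. The median was -0.34, and -0.51 without CC replicate 3, at the same counts of calls. List averages were 0.10 to 0.14 in PFC arrays and 0.74 to 0.88 in CC arrays, beside 1.45 in control Hippo and -0.19 in control Amy. In 2 of the 11 called lower CC stood above all other control areas, beside 51.9% of the 135 genes called lower and 6.27% of all genes. For Sostdc1, a secreted signalling inhibitor, Cldn2, a tight junction protein, Kl, the klotho protein, and F5, coagulation factor V, 1 of 2 probe sets was called. The water channel Aqp1 was the member called higher, with 1.26, 1.23 and 1.46 in PFC, against -0.37, -1.27 and -0.17 in CC (difference 1.92, adjusted p = 0.00617). Of 30 ependymal and motile cilia genes, Stoml3 alone was called, and their median was -0.02.

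Of 10 measured layer 4 genes, 4 were called lower in PFC and 0 higher, beside 0.742% and 1.52% of all genes. Rspo1, a secreted activator of Wnt signalling that marks layer 4 neurons, had 0.10, 0.26 and 0.26 in PFC, against 2.96, 2.78 and 2.72 in CC (difference -2.61 ± 0.08 SE, adjusted p = 3.45e-05). Hsd11b1, an enzyme that regenerates active glucocorticoid, had -0.76 to -0.64 in PFC and 0.51 to 0.90 in CC (difference -1.43, adjusted p = 0.000514). Pamr1 differed by -1.22 (adjusted p = 2.17e-05) and the potassium channel Kcnh5 by -1.09 (adjusted p = 0.0021), which was -0.997 and not called without CC replicate 1. Without the fold threshold 7 of the 10 were lower and 0 higher, beside 14.1% and 13.1% of all genes, and the median was -1.02. Rorb, the orphan receptor of layer 4, differed by -0.16. The list averaged -0.03 to 0.03 in PFC arrays and 0.91 to 1.09 in CC arrays, above Hippo (-0.46) and Amy (-0.12).

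The other layers moved in both directions. Of 14 upper layer genes 2 were called higher and 1 lower, of 18 layer 5 genes 3 and 2, and of 20 layer 6 and subplate genes 4 and 2. Over all genes 1.52% were called higher and 0.742% lower. The largest increase on the layer 6 list was that of Trh (4.70), which also stood on the bulb list. Cplx3, a complexin of subplate neurons, and Lamp5, a lysosome-associated protein of upper layers, differed by -1.25 (adjusted p = 0.00336) and -1.04 (adjusted p = 6.23e-05). Qrfpr, a neuropeptide receptor on the layer 5 list, had -0.74, -0.85 and -1.60 in PFC, against 1.37, 1.42 and 1.07 in CC (difference -2.35, adjusted p = 0.00163). Fezf2 and Bcl11b, both factors of layer 5 projection neurons, went opposite ways, at -1.10 (adjusted p = 0.000509) and 1.4 (adjusted p = 0.000221), and Bcl11b is also known from the striatum. Crym, a thyroid hormone binding protein, differed by 1.24 (adjusted p = 0.000188) and Cpa6, a carboxypeptidase, by 3.01 (adjusted p = 0.00019).

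**Figure D3:**
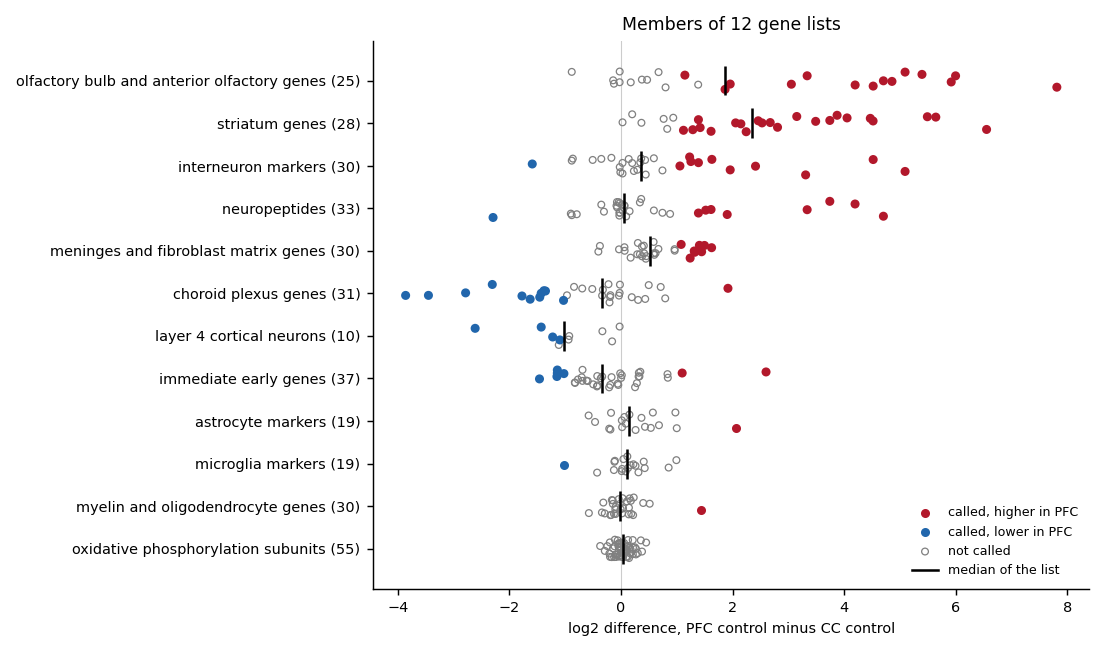
Log2 difference, PFC control minus CC control (horizontal axis), of each measured member of 12 gene lists, with the number of members in brackets. Filled points are called genes, open points are not called and the bar is the median of the list, which lies to the right for striatum and olfactory bulb genes, to the left for layer 4 genes and near 0 for glial and respiratory chain genes.

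Transcription factors lower in PFC included those that pattern the cortical sheet. Tshz2, a teashirt zinc finger factor, had -0.57, -0.51 and -0.57 in PFC, against 2.01, 2.08 and 1.76 in CC. All 3 of its probe sets were called (difference -2.5, adjusted p = 4.86e-05), and its relative Tshz3 differed by -1.56 (adjusted p = 8.57e-05) whereas Tshz1 differed by 1.79 (adjusted p = 1.15e-05). Nr2f1, the factor COUP-TF1 that is known to rise toward the back of the cortex, had -0.57 to -0.41 in PFC and 0.55 to 0.66 in CC (difference -1.07, adjusted p = 0.00017). Zfpm2, a cofactor of GATA factors, differed by -1.4 (adjusted p = 7.31e-05), and the LIM homeobox gene Lhx2 by -1.02 (adjusted p = 2.35e-05), or -0.996 and not called after centring the arrays on their medians. Satb1, a chromatin organizer, had -0.05 to 0.01 in PFC and 1.43 to 1.78 in CC (difference -1.67, adjusted p = 0.000292), with 4 of its 5 probe sets called. Tbr1 differed by -0.69 (adjusted p = 0.00705) and was not called.

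Ovol2, a zinc finger factor best known from epithelia that stood on no list, had 0.72, 1.29 and 1.79 in PFC, against 3.96, 3.80 and 3.28 in CC, where it stood far above Hippo (-0.74 ± 0.03) and Amy (-0.83 ± 0.02, SD, n = 3 each). The PFC arrays lay between CC and those 2 areas, and the difference was -2.41 (adjusted p = 0.00343). C1ql2, a synapse organizer of hippocampal mossy fibres and 1 of the 2 hippocampus genes called lower, had -1.20, -1.21 and -1.26 in PFC, against -0.20, 1.09 and 1.21 in CC. CC replicate 1 was the low one of its group, and the call (difference -1.93, adjusted p = 0.0153) was lost without PFC replicate 3 (adjusted p = 0.0535) and with the methods' t-test (adjusted p = 0.0609).

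Activity-regulated immediate early genes were mostly lower in PFC, with exceptions. Of 37 measured, 5 were called lower, 2 higher and 30 neither, beside 0.742% of all genes called lower and 1.52% higher. Without the fold threshold 21 were lower and 7 higher, beside 14.1% and 13.1% of all genes, and the median was -0.34. Egr2, a zinc finger factor, had 0.50, 0.64 and 0.46 in PFC, against 2.00, 1.95 and 2.03 in CC (difference -1.46, adjusted p = 6.72e-05). Bdnf, a neurotrophin, differed by -1.15 (adjusted p = 0.000325), Ier5 by -1.14, Ptgs2, a cyclooxygenase, by -1.14 and Dusp4, a phosphatase of MAP kinases, by -1.02. The call of Dusp4 was lost without PFC replicate 2 (-0.97) and without CC replicate 1 (-0.91). Arc and Fos, at -0.82 and -0.62, did not reach the fold threshold. Atf3, a stress-responsive factor, had 2.47, 2.37 and 2.71 in PFC, against -0.16, -0.09 and -0.01 in CC (difference 2.60, adjusted p = 6.23e-05), and Fosb differed by 1.10 (adjusted p = 0.00149).

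Glial, vascular and housekeeping lists held few calls, as did all genes, of which 1.52% were called higher and 0.742% lower. The counts of calls therefore do not set these lists apart. Of 19 astrocyte markers 1 was called, Agt, the angiotensinogen gene (difference 2.06, adjusted p = 0.0406), while by adjusted p alone 9 were higher and 3 lower, beside 13.1% and 14.1% of all genes. Its CC arrays were at -1.72, -1.61 and -3.59, and the call was lost without PFC replicate 1, 2 or 3 (adjusted p = 0.104, 0.0992 and 0.113) and without CC replicate 1 (adjusted p = 0.0527). It was also lost with the methods' t-test (adjusted p = 0.118), after median centring (adjusted p = 0.0669) and in the fit blocked by replicate number (adjusted p = 0.0503). Of 30 myelin genes Apod was called higher, of 19 microglia markers Gpr34 was called lower and of 21 endothelial and mural markers 0 were called by limma, with 6 past the adjusted p alone and 10 at an unadjusted p under 0.05. Of the 55 measured subunits of oxidative phosphorylation 0 were called by limma, with 15 higher and 10 lower by adjusted p alone, 28 at an unadjusted p under 0.05 and a median of 0.04. Over all genes 27.2% passed the adjusted p alone. Potassium channel genes, of which 55 were measured, had 3 called higher, led by Kcna5 (difference 4.18, adjusted p = 0.000144), and 4 lower. The largest decrease among them was that of Kcne2 (-3.86), which also stood on the choroid plexus list. The other lists of receptors, adhesion molecules and guidance molecules had 1 to 3 members called higher each, from 15 to 47 measured, and 0 to 1 called lower.

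Probe sets can disagree within a gene, since they may read different transcript ends. Of 543 genes with a probe set called higher, 269 were also called higher by the mean of their probe sets, and of 395 with a probe set called lower, 134 were called lower. Only 3 genes had probe sets called in both directions. Outside called genes, the 2 probe sets with the largest increases were 1 of 3 probe sets of Cul5, a ubiquitin ligase scaffold (2.93), and 1 of 4 of Rasgrp2, an exchange factor of Rap proteins (2.86). Those with the largest decreases were 1 of 7 of Rab2a, a vesicle transport GTPase (-2.57), and 1 of 6 of Edil3, an integrin ligand (-2.46).

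The CMS mice gave a second set of 6 arrays of the same areas, which shares no array with the controls, and in which 1.93% of all genes were called between the areas. Of the 277 genes called higher in control PFC, 276 had the same sign in CMS arrays and 172 were called again, 62.1% of the control list and 74.1% of the 232 called higher there (1.28% of all genes). Of the 135 called lower, 127 kept the sign and 42 were called again, 31.1% of the control list and 35% of the 120 called lower with CMS (0.66% of all genes). No gene was called in opposite directions. The median over the genes called lower was -0.81 in CMS arrays, beside -1.22 in controls, and over those called higher 1.19 beside 1.46, where the control values had also chosen the genes.

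The change of the area difference itself between CMS and control mice was tested for every gene and called in 0.484% of them, and the gene groups stood differently in it. Among bulb genes, Cdhr1 differed by 8.19 and Th by 6.30 in CMS arrays, 15 of 25 were called higher, and 0 of the 25 had a called change in the area difference itself. Among layer 4 genes, Rspo1 differed by -2.55 in CMS arrays, where the median of the list was -0.93. Of the striatum genes 18 were called higher in CMS arrays with a median of 1.42, but in 13 the area difference was called smaller than in controls, beside 0.258% of all genes with such a change. Drd2 averaged 1.38 ± 0.09 in PFC and -1.62 ± 0.30 in CC with CMS (SD, n = 3 each), against 1.91 ± 0.05 and -4.64 ± 0.53 in controls, so that most of the change lay in CC.

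Of the 11 choroid plexus genes called lower in controls, Ttr alone was called lower with CMS. Kcne2 averaged -0.10 ± 0.09 in PFC and -0.21 ± 0.07 in CC with CMS, against 0.29 ± 0.35 and 4.14 ± 0.12 in controls (SD, n = 3 each). The median of the list was 0.05 in CMS arrays, 1 member was called lower and 5 were called higher, and in 11 members the area difference changed upward, beside 0.225% of all genes. Ttr stood at -5.33 ± 0.16 in PFC and -3.65 ± 0.10 in CC with CMS (difference -1.67, adjusted p = 0.00037), and the change in its area difference was not called (adjusted p = 0.162). The epithelium genes showed the opposite case, with 11 called higher in CMS arrays and 2 in controls, and of the blood cell genes 7 were called higher in CMS arrays and 2 in controls.

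**Figure D4:**
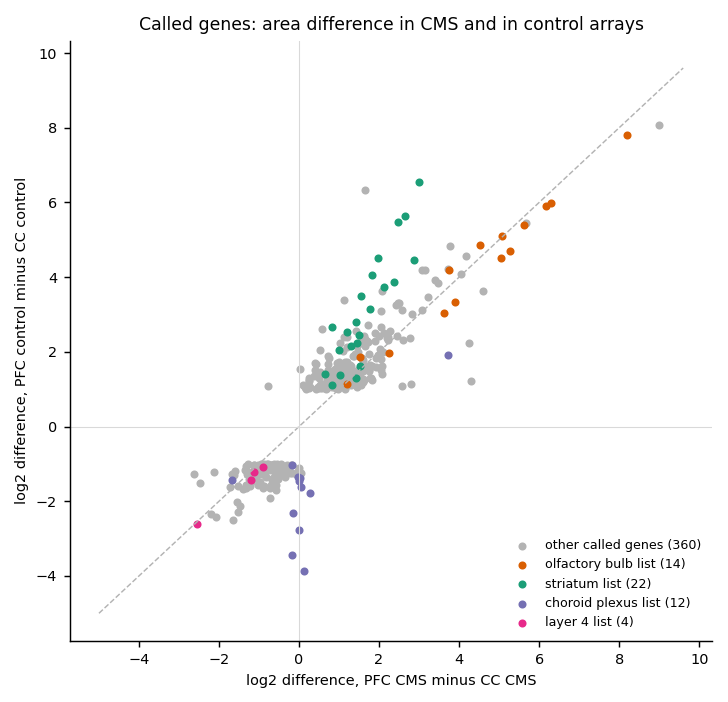
Log2 area difference of the 412 genes called in control arrays, with PFC CMS minus CC CMS on the horizontal axis and PFC control minus CC control on the vertical axis, and a dashed line of equal values. Bulb and layer 4 genes lie near the line, striatum genes above it, and most choroid plexus genes at about 0 on the horizontal axis.

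Set against the 2 other control areas, either cortex could be the one that stood apart. Of the 277 genes higher in PFC, 140 (50.5%) had every PFC array above all arrays of CC, Hippo and Amy, and 110 (39.7%) had every CC array below all others, beside 8.53% and 4.36% of all genes. Of the 135 lower in PFC, 70 (51.9%) had CC above and 40 (29.6%) had PFC below all others, beside 6.27% and 20.7% of all genes. Since these counts use the arrays that made the calls, they describe the order of levels and carry no test. Among the called genes, 96 of the 277 higher and 38 of the 135 lower stood on any of the lists, and the others were on none.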

How the data were processed

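Total RNA of PFC and CC was labelled and hybridised to Affymetrix mouse genome 430 2.0 arrays, 3 control arrays per area. The authors summarized the scans with GCRMA in GeneSpring GX and normalized them to a baseline, and the deposited table holds log2 values with a median of 0 for each probe set (at most 5e-07 away from it in the 24 arrays), so it carries no absolute level or background, and the number of arrays limits the precision. No source used here names the software versions.

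Of 45101 probe sets, 64 Affymetrix controls were left out. Of the 45037 tested, 34945 matched 1 gene symbol of the platform annotation, 932 several and 9160 none, and means over the probe sets of a symbol gave 18193 genes. The areas were compared with limma (version 3.58.1, R 4.3.3) on the 6 control arrays, and the change of the area difference with CMS in a fit of 12 arrays with 4 group means. A single gene tested by exact permutation of 3 against 3 arrays could not go below p = 0.1, so none was run. Gene lists (35, with 843 of 912 members measured) are described by counts and medians only. The members and lists were chosen with earlier results of these data known. The genes named were the 15 largest changes in each direction among called genes without overlap of the arrays, up to 6 called members per list (up to 2 where none was called), genes a list turns on and single probe sets of genes not called. Other list members were named after their values were seen. Within-group standard deviations had a median of 0.048 per probe set in PFC and 0.066 in CC.

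The alternatives were the methods' t-test, fits of all 24 or of the 12 control arrays, quantile normalization, median centring, a filter on variability, array weights, limma's trend and robust options, the replicate number as a block, other thresholds, the most variable probe set per gene and leaving out each array. The scripts were tested on simulated data. Promoters came from RefSeq, and plots from matplotlib 3.10.9 (Python 3.11.15).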

Additional observations from a re-analysis of the deposited data

Results flagged for a closer look

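The genes below were singled out because the area difference itself differed between CMS and control mice (limma, interaction term in a fit of 12 arrays, adjusted p under 0.05 and a change over 2-fold). Values are the log2 area difference in CMS arrays minus that in control arrays.

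Striatum genes had smaller differences between PFC and CC with CMS. The changes were Drd2 (-3.55), Rxrg (-3.01), Syndig1l (-3.00), Ido1 (-2.55), Gpr6 (-2.22), Rarb (-1.95), Pde10a (-1.85), Penk (-1.62), Slc35d3 (-1.59), Drd1 (-1.39) and Ppp1r1b (-1.38). The areas had differed by 2.67 to 6.55 in controls, and Pde10a (0.82 with CMS) was the one of these 11 below the fold threshold in CMS arrays. Lrrc10b, which stood on no list, changed by -4.69, and Lhx8 by -1.54, Nts by -1.12 and Baiap3 by -1.07.

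Choroid plexus genes changed upward, Kcne2 by 3.98, Folr1 by 3.27, Calml4 by 2.79, Kcnj13 by 2.14, Sostdc1 by 2.04, Aqp1 by 1.82, F5 by 1.68, Cldn2 by 1.47 and Kl by 1.33. For Aqp1 the difference was already positive in controls and became larger, at 3.73 with CMS and 1.92 in controls, while for the others it lay between -0.17 and 0.27 with CMS.

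Some genes known from olfactory neurons, airway epithelium and neutrophils had larger differences with CMS. Stoml3 changed by 1.99, Cbr2 by 3.08, Camp by 4.05 and Ngp by 5.32, although S100a9 had no called change (-0.41, adjusted p = 0.057). S100a5 of olfactory sensory neurons changed by 0.93 (adjusted p = 0.00289), under the fold threshold. Atf3 changed by -2.04, with differences of 0.56 in CMS arrays and 2.60 in control arrays. What these changes come from was not tested.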

How the results depend on the processing

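The count of 1487 called probe sets and that of 412 called genes stayed within 1.5 times under every alternative that kept the thresholds and the averaging of probe sets, at 1285 to 1888 and 372 to 544. Leaving out 1 array gave 1363 to 1548 probe sets, 399 to 442 genes and, for the 214 genes called again in CMS arrays, 209 to 216. Without the fold threshold 9670 probe sets and 4952 genes were called, and with a fold change over 1.5 these were 4000 and 1264. The most variable probe set per gene gave 863 genes. Without the fold threshold in CMS arrays 354 genes were called again, and after quantile normalization 328.

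With the replicate number as a block, 1428 probe sets and 406 genes were called, and 402 of these genes were among the 412. Deviations of same-numbered arrays correlated at -0.112, -0.0487 and -0.227, and no replicate correlated best with its own number. The best correlations with another number were also small, at 0.181, 0.0736 and 0.158. Arrays of the same mouse need not share such deviations, so these values cannot decide whether the numbers pair the arrays. Of 98 named genes, 92 kept their call or its absence under all 15 alternatives, none changed direction, and C1ql2, Agt, Kcnh5, Lhx2 and Dusp4 lost their call in at least 1, while Arc gained one in 1.

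The 7 lists followed through the alternatives kept the sign of their medians, and the methods' t-test called 0 endothelial and 0 oxidative phosphorylation genes, as limma did. Without CC replicate 3, the array that stood apart, 267 genes were called higher and 175 lower, beside 277 and 135, and the share of increases among called genes fell to 60.4%, against 67.2% with all arrays. Among probe sets 688 were then higher and 860 lower, beside 744 and 743 with all arrays. Array weights gave 787 probe sets higher and 985 lower. The counts of gene lists without CC replicate 3 were chosen after seeing the data. The 3 arrays per area, a table without absolute levels and unstated dissection borders limit all values.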
